A study of Mus musculus with 3 samples.

Results

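The genes described here are the mouse Zfp genes, which encode zinc finger proteins and carry the symbol Zfp with a number and, for some, a closing letter or l1 or l2. Of 331 such genes with a probe set (a group of array probes read as 1 value) that names no other gene, 128 had a probe set at an intensity of 200 or more on at least 1 of 3 arrays, and these 128 are described, of 18193 genes with 1 symbol on the array. The intensities that chose the genes are the same ones compared below, so every difference is a description and none is a test. Of the 128 genes, 19 reached 200 on a single array (5 with LPS, 12 with PTX and 2 with PBS), and the probe set through which they did so was bound to be higher there. For Zfp493 that was not the probe set compared. Another 23 reached 200 with PTX and with PBS and not with LPS, so their LPS readings were bound to be under the 200 they reached elsewhere.

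Dendritic cells, the antigen-presenting cells that start T cell responses, were grown from bone marrow of female mice aged 6 weeks in medium with GM-CSF at 20 ng/mL, and nonadherent cells were taken on day 7. They were then kept for 24 h with LPS at 1 µg/mL (lipopolysaccharide, a bacterial cell wall component sensed by a Toll-like receptor), with PTX at 100 ng/mL (an abbreviation the labels do not spell out), or with PBS as the control. Each of the 3 groups was 1 Affymetrix array of total RNA, with the strain given as C57BL/6 for LPS and PBS and as C57BL/7 for PTX. The labels do not say whether the cultures came from 1 mouse, so differences between groups and between preparations cannot be told apart. No difference below has a replicate check, a standard deviation or a p-value. RNA was taken from whole cultures, where fewer cells of a type and less RNA per cell cannot be told apart.

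Most Zfp proteins carry repeated fingers of the C2H2 type, in which a pair of cysteines and a pair of histidines hold a zinc ion and each finger contacts a few DNA bases. Many of them also carry a KRAB domain, through which they recruit the corepressor Trim28 and the histone methyltransferase Setdb1 and silence retroelements, and their genes lie in clusters that differ between species. The symbol also covers proteins of another kind. Zfp36 (tristetraprolin), Zfp36l1 and Zfp36l2 have CCCH fingers, bind AU-rich elements in messenger RNA and bring in the deadenylase that starts its decay, so the set does not hold transcription factors alone.

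Promoter sequences are shown for 6 of the genes whose levels the results turn on. They are the brightest gene (Zfp36l1), the tristetraprolin gene (Zfp36), the gene with the largest gap between PTX and LPS (Zfp995), 1 gene higher with LPS (Zfp414), 1 higher with PTX (Zfp512) and 1 that was above PBS with both on its brighter probe set (Zfp281). Each runs 5′ to 3′ along the strand of the gene, from 250 bases before the start to 50 after it, as listed by RefSeq on GRCm38.p6. Capitals mark a match on either strand to 1 of 6 motifs, namely the ETS core CCGGAA, the GC box GGGCGG, the TATA box TATAAA, the cAMP response element TGACGTCA, the NF-kB site GGGANNTTCC and the interferon response element GAAANNGAAA.
Zfp36l1: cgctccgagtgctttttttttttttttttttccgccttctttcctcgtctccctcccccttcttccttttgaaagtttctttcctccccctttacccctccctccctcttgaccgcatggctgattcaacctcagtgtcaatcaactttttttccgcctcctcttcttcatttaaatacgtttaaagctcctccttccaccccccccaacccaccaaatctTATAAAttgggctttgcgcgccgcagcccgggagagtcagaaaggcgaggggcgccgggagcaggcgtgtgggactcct
Zfp36: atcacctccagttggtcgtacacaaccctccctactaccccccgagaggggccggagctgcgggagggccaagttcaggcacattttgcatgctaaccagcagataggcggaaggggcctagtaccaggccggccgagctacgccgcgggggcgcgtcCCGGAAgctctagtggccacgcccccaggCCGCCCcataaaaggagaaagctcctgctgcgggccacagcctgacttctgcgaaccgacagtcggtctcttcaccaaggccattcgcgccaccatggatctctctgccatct
Zfp995: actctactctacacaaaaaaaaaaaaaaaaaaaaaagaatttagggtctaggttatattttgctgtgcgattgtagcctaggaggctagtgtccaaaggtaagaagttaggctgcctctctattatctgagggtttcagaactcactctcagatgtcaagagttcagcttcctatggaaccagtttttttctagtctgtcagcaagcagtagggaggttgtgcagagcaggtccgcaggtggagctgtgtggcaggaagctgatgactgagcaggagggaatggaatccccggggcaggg
Zfp414: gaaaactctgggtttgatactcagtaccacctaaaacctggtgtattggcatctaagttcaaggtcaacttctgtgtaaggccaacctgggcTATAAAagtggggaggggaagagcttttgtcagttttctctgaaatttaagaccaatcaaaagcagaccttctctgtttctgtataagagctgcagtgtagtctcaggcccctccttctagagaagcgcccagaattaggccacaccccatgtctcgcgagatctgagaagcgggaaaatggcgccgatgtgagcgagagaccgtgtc
Zfp512: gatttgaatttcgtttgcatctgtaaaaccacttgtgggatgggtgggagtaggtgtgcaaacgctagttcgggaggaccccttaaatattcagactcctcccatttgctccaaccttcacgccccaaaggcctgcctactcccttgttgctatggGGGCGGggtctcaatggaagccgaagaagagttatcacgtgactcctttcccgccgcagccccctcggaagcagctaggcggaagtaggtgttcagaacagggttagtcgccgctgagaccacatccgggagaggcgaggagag
Zfp281: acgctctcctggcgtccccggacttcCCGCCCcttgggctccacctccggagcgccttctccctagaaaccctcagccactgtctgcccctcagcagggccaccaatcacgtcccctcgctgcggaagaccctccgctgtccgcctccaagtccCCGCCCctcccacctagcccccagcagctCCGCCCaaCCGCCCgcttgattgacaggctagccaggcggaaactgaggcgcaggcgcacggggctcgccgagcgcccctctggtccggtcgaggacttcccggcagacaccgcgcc

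The Zfp36l1 window lies at chr12:80112964-80113263 (minus strand), Zfp36 at chr7:28379179-28379478 (minus), Zfp995 at chr17:21909877-21910176 (minus), Zfp414 at chr17:33628842-33629141 (plus), Zfp512 at chr5:31452186-31452485 (plus) and Zfp281 at chr1:136624651-136624950 (plus). Zfp281 held 4 GC boxes and 27 CpG pairs. Zfp995 held none of the 6 motifs and 3 CpG pairs. Over the genes, 104 of 128 had 126 promoters in the table. The ETS core was in 38.9% of the 126, against 14.9% of all 32851 promoters and 29.2% of the 8903 promoters of genes at 200 or more. The GC box was in 58.7%, against 35.7% of all promoters and 63.3% of those of genes at 200 or more, and the TATA box in 7.14%, against 13.6% and 7.10%. The other 3 motifs, which factors active in stimulated dendritic cells are known to bind, were each in 5 promoters or fewer. The interferon response element was in 1 of 126 promoters (0.794%, Zfp994), against 3.44% of all promoters and 3.18% of those of genes at 200 or more. The NF-kB site was in 4 (3.17%, in Zfp84, Zfp617, Zfp622 and Zfp946), against 1.47% and 1.67%, and the cAMP response element in 5 (3.97%), against 1.79% and 3.02%. Among 225 matches in these promoters, 3 pairs of different motifs overlapped. A match is a run of letters, and binding was not measured.

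The cultures had the markers of the labelled cell type. All 10 dendritic cell markers reached 200 on some array, with a summed intensity of 43410 with LPS, 33255 with PTX and 27860 with PBS. Within that list Itgax (1691 with LPS, 1294 with PTX and 2383 with PBS) and Zbtb46 (190, 173 and 236) were highest with PBS. B cell and erythroid markers did not reach 200 on any array, and of 5 T cell markers only Cd4 did. The 4 mast cell markers summed to 846 with LPS, 315 with PTX and 278 with PBS, with only Cpa3 at 200 or more. The 4 stromal markers summed to 582 with LPS, 257 with PTX and 242 with PBS, with only Dcn at 200 or more. Dividing-cell markers (Mki67, Top2a and others, 6 measured) summed to 1306 with LPS and 1522 with PTX, against 6313 with PBS. The 7 macrophage markers summed to 33120 with LPS and 34120 with PTX, against 20335 with PBS. Of them C1qa (1032 with LPS, 3025 with PTX and 1626 with PBS) and C1qb (1812, 4727 and 2814) were lowest with LPS. The 6 neutrophil markers summed to 11869 with LPS and 5363 with PTX, against 10346 with PBS. The brightest of these went apart with LPS, S100a8 at 9306 with LPS, 4007 with PTX and 6074 with PBS, and S100a9 at 1924, 1083 and 3877. Elane and Mpo stayed under 200 on every array. The part these cells had in the differences below was not tested. The LPS array was dimmer as deposited, with a median over all noncontrol probe sets of 65.3, against 86.9 with PTX and 85.7 with PBS. Its ratio of 3′ to 5′ signal for 18S ribosomal RNA was 1.95, against 0.198 with PTX and 0.26 with PBS. The same ratio for beta-actin messenger was 1.39 with LPS, 1.40 with PTX and 1.33 with PBS, and for Gapdh 0.963 with LPS, 1.12 with PTX and 1.02 with PBS, so those 2 were alike on the arrays. The 18 hybridization controls, which are added to each sample, were higher with LPS than with PBS by a median of 0.20 on the log2 scale, and with PTX by 0.01. These values stand beside every statement on LPS, and their part was not tested.

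Zfp genes were mostly dim. On the probe set that represents each gene, the one with the highest mean log2 value, the median intensity of the 128 genes was 250.3 with LPS, 345 with PTX and 313 with PBS. Over all 8437 genes that reached 200 on some array it was 511 with LPS, 547 with PTX and 543 with PBS. Only 15 Zfp genes reached 1000 on any array. Zfp36l1, an mRNA decay factor, was the brightest by mean log2 value, at 3485 with LPS, 5477 with PTX and 4539 with PBS. Next came its relative Zfp36l2 (2464, 3983 and 4180 in the same order) and Zfp622 (3402, 2964 and 2561), whose human counterpart binds the large ribosomal subunit. The other genes among the 10 highest were Zfp52, Zfp91, Zfp445, Zfp36, Zfp871, Zfp710 and Zfp207. Zfp52 read 2045 with LPS, 1752 with PTX and 1579.9 with PBS (0.37 and 0.15 against PBS on the log2 scale used below). Zfp871 read 1107 with LPS, 1604 with PTX and 1289.5 with PBS (-0.22 and 0.31), while a second probe set of it read 108 with LPS, 929 with PTX and 843 with PBS (-2.80 and 0.14). Intensities of different probe sets do not rank messenger amounts. At the low end, the genes just inside the minimum were Zfp955b (highest value 202), Zfp946 (205) and Zfp994 (209.8). Those just outside were Zfp74 (199.7), Zfp329 (199.3) and Zfp672 (199).

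In LPS against PBS, more Zfp genes were lower than higher. On the log2(intensity + 16) scale, where a pseudocount of 16 shrinks the differences of dim genes, 24 of 128 were at least 2-fold lower, 3 at least 2-fold higher and 101 within 2-fold. Over all 8437 genes, 10.8% were at least 2-fold lower and 7.38% at least 2-fold higher, against 18.8% and 2.34% of the Zfp genes. The median difference of the Zfp genes was -0.37 (quartiles -0.79 and -0.00066), against -0.03 over all genes, and 25% of Zfp genes lay above 0, against 48% of all genes. The LPS array was the lowest of the 3 for 91 Zfp genes (71.1%), against 42.8% of all genes. It was the highest for 21 (16.4%), against 38% of all genes. The PTX array was the highest for 67 Zfp genes (52.3%) and the lowest for 17 (13.3%), against 33.3% and 29.7% of all genes. For the PBS array the counts were 40 highest (31.2%) and 20 lowest (15.6%), against 28.7% and 27.5%.

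The sign of that median depended on how the arrays were scaled, and its place below all genes did not in the scalings run. Median and trimmed mean scaling multiply each array by a single factor, which shifts Zfp genes and all genes nearly alike. They could hardly move that place, and only quantile normalization could do so freely. With each array divided by its median intensity, the median Zfp difference in LPS against PBS was 0.073 and that of all genes 0.37. With quantile normalization they were -0.12 and 0.07, and with a trimmed mean -0.34 and -0.0017. The median of the Zfp genes minus that of all genes was thus -0.34 as deposited, -0.19 with quantile normalization, -0.30 with median scaling and -0.34 with the trimmed mean. The split of called genes moved as well. As deposited 11.1% of the called Zfp genes were higher, with quantile normalization 28.6% (6 higher, 15 lower) and with median scaling 44.4% (8 higher, 10 lower). The counts with quantile normalization and median scaling are each of 134 Zfp genes. Of all genes 8.31% were higher and 8.29% lower with quantile normalization, and 15.7% and 6.37% with median scaling.

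**Figure D1:**
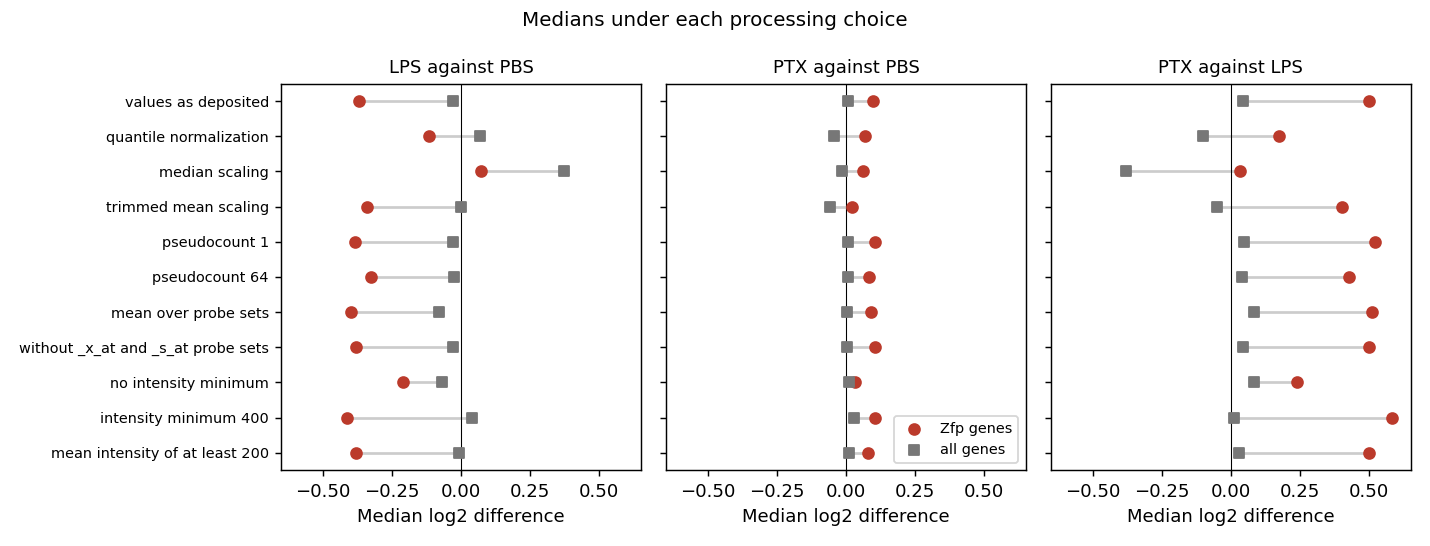
Median log2 difference (horizontal axis) of Zfp genes (red circles) and of all genes (grey squares) under each processing choice (rows), in 3 panels, 1 per comparison. Zfp genes lay below all genes in every row of LPS against PBS, though with median scaling their own median was 0.073, and above all genes in every row of PTX against LPS.

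Dim genes in general were lower on the LPS array, so the comparison was also made by level. Among genes with a mean level (from the mean log2 value) of 200 to 400, the median difference in LPS against PBS was -0.28 for 64 Zfp genes and -0.15 for 2350 genes in all. Between 400 and 800 it was -0.66 for 25 Zfp genes and -0.07 for 2146 genes, and at 800 or more it was -0.24 for 15 Zfp genes and 0.17 for 2955 genes. Below 200, where genes entered by a single high array most often, it was -0.67 for 24 Zfp genes and -0.41 for 986 genes. At every level the Zfp median was below that of all genes, and the gap was widest between 400 and 800. The share at least 2-fold lower with LPS was not above that of all genes at every level. Between 200 and 400 it was 10.9% of Zfp genes, against 12% of all genes, and below 200 it was 37.5%, against 31.8%. Between 400 and 800 it was 24%, against 9.41%, and at 800 or more 13.3%, against 3.82%. When genes were kept by a mean intensity of 200 over the arrays instead, 1 of 109 Zfp genes was at least 2-fold higher and 19 lower. Of all genes kept that way 6.87% were higher and 8.99% lower.

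**Figure D2:**
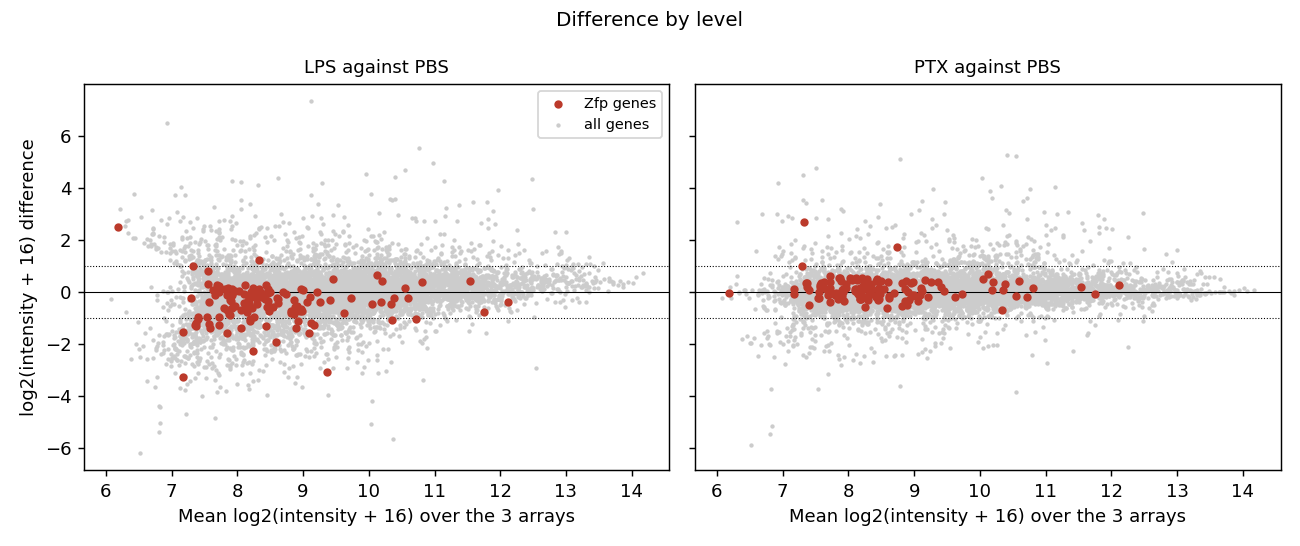
The log2(intensity + 16) difference (vertical axis) by mean log2 level over the 3 arrays (horizontal axis), for LPS against PBS (left) and PTX against PBS (right), with Zfp genes in red and all 8437 genes in grey. In the left panel 96 of 128 Zfp genes lie at or below 0, and in the right panel all but 3 lie within 2-fold (dotted lines).

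The 3 genes with the largest negative differences in LPS against PBS read under 200 on the LPS array and over 200 with PTX and PBS. Zfp995 read 129.7 with LPS, 1577 with PTX and 1199 with PBS (log2 difference LPS against PBS -3.06). Its other probe set, which can match several transcripts, read 106 with LPS, 202 with PTX and 149 with PBS (-0.43). Zfp433 had 1 probe set, at 14.8 with LPS, 309.7 with PTX and 280.4 with PBS (-3.26). Its reading with LPS was under the pseudocount, so the size of this difference depends on it. Zfp276 read 81.8 with LPS, 589 with PTX and 455 with PBS (-2.27). Its other probe sets disagreed, with 241 with LPS, 274 with PTX and 298 with PBS on one (-0.29) and 215, 180.4 and 179.8 in the same order on another (0.24). The mean over its probe sets at 200 or more was -0.77, within 2-fold.

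The next genes had smaller gaps of the same form, with PTX near PBS or between LPS and PBS. Zfp740, with 1 probe set, read 167 with LPS, 434 with PTX and 676 with PBS (-1.92), and Zfp219, a partner of Sox9 in mouse cartilage cells, read 109 with LPS, 443 with PTX and 313 with PBS (-1.40). Zfp101 read 102 with LPS, 276 with PTX and 337 with PBS (-1.58). Zfp503, a relative of Zfp703 known from striatal development, read 253 with LPS, 734 with PTX and 788 with PBS (-1.58). Zfp608 was at least 2-fold lower on both of its probe sets, at 266 with LPS, 499.9 with PTX and 718 with PBS (-1.38) and at 147, 288 and 345 (-1.15). Of the 24 lower genes, 4 had a single probe set and 8 had another that reached 200. In 2 of those 8 (Zfp511 and Zfp608) another probe set was also at least 2-fold lower. In 6 of the 8 every other probe set at 200 or more had the same sign. Some of these were close to 0, as in Zfp182 (-0.04), Zfp950 (-0.07) and one of Zfp511 (-0.03). Genes within 2-fold on the probe set that represents them could be lower on others. Zfp800 differed by -0.55 on that one, and by -2.17, -2.42, -2.59 and -0.66 on its others at 200 or more. On the LPS array 17 of the 24 were under 200. The minimum of 200 could be passed on another array, so it bears on this count.

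Brighter genes were among the lower ones too. Zfp91, a ubiquitin ligase that acts on the kinase NIK of the noncanonical NF-kB pathway, read 1082 with LPS, 1940.3 with PTX and 2214 with PBS (-1.02). Its second bright probe set read 1224 with LPS, 1285 with PTX and 1446 with PBS (-0.24), so the probe sets differed in size. Zfp710 read 760.1 with LPS, 1722 with PTX and 1638 with PBS (-1.09). Zfp598, whose human counterpart marks collided ribosomes with ubiquitin, read 299.7 with LPS, 726 with PTX and 712 with PBS (-1.20). On the probe sets that represent the 24 lower genes, PTX and PBS readings were within 2-fold of each other. The differences ran from -0.62 (Zfp740) to 0.51 (Zfp950). Other probe sets went past 2-fold in PTX against PBS in Zfp493 (4.02, given below) and Zfp182 (1.22). That of Zfp182 read 76.2 with LPS, 205.7 with PTX and 78.9 with PBS.

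**Figure D3:**
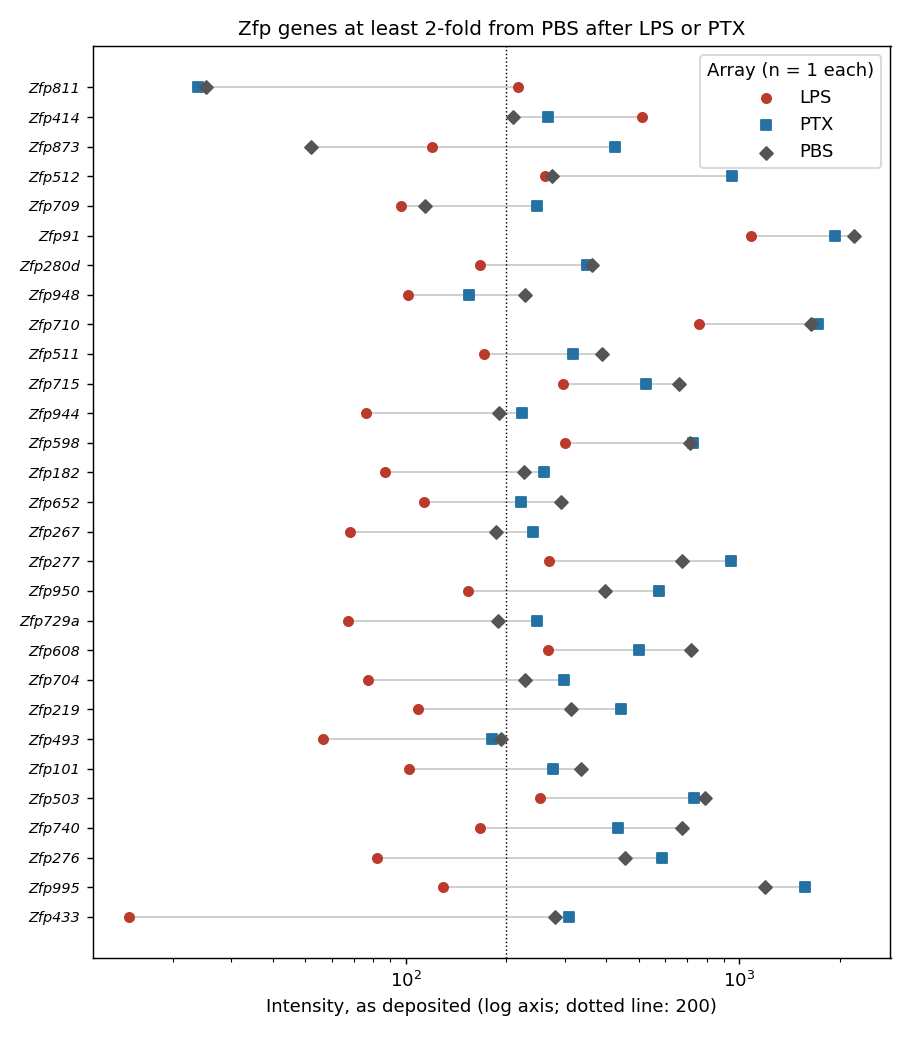
Intensity on a log axis for the 29 Zfp genes at least 2-fold from PBS after LPS or PTX, ordered by the LPS against PBS difference from the highest at the top, with LPS as circles, PTX as squares and PBS as diamonds (1 array each). For the 24 genes from Zfp91 down the LPS point is the lowest, and PTX and PBS lie close together.

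Zfp genes at least 2-fold higher with LPS were Zfp811, Zfp414 and Zfp873. Zfp811 read 218 with LPS, 23.9 with PTX and 25.1 with PBS (2.51), and its other, dimmer probe set read 68.1 with LPS, 17.8 with PTX and 16.5 with PBS. Both probe sets were high with LPS alone, and the gene entered the set only through that array. Zfp414, with 1 probe set, read 511 with LPS, 267 with PTX and 210.2 with PBS (1.22). Zfp873, described with PTX below, was at the limit (1.00) and at 0.67 with a pseudocount of 64. Below 2-fold, Zfp931 read 253 with LPS, 141 with PTX and 139 with PBS (0.80), and Zfp639 read 852 with LPS, 617 with PTX and 603 with PBS (0.49). Zfp931 was past 2-fold with quantile normalization (1.09) and median scaling (1.16).

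In PTX against PBS few Zfp genes differed. Past the 2-fold limit were 3 genes above PBS and 0 below it, with 125 between. The shares were 2.34% higher and 0% lower, against 4.03% and 2.89% of all genes. The median difference was 0.10, against 0.01 over all genes, and 59.4% lay above 0, against 50.7% of all genes. The lowest Zfp difference was -0.69. Across the 10 other settings the median stayed between 0.02 and 0.11.

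Zfp512 had 1 probe set, at 951 with PTX and 274 with PBS (log2 difference 1.74), and at 261 with LPS. Zfp873, also with 1 probe set, read 425 with PTX and 52 with PBS (2.70), and 120.1 with LPS. Zfp709 read 247 with PTX and 115 with PBS (1.01), and 96.8 with LPS. The PTX array was the highest of the 3 for each, and Zfp873 and Zfp709 entered the set only through it. For Zfp512 and Zfp709 the LPS reading was near or below that with PBS, and for Zfp873 it lay between PBS and PTX. Zfp709 was under 2-fold with median scaling (0.98), the trimmed mean (0.95) and a pseudocount of 64 (0.80). Zfp493 had probe sets that went apart. The one that represents it read 181 with PTX, 193 with PBS and 56.6 with LPS, and the other, through which the gene was kept, read 676 with PTX, 26.6 with PBS and 31.7 with LPS (4.02 in PTX against PBS).

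Genes below PBS with PTX were within 2-fold. Zfp207, a spindle assembly factor in human cells, had the largest difference and read 1021 with PTX and 1656 with PBS (-0.69), and 1216 with LPS. Its 3 other probe sets at 200 or more were higher with PTX than with PBS, for example at 505 with PTX and 392 with PBS. The mean over all 4 was 0.10, so this direction was not shared by its probe sets. Zfp740 (-0.62), Zfp451 (-0.57), Zfp560 (-0.53), Zfp608 (-0.51) and Zfp948 (-0.51) followed. Above PBS within 2-fold were Zfp281 (0.68), Zfp429 (0.61), Zfp287 (0.55), Zfp691 (0.55) and Zfp945 (0.55).

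PTX against LPS shares its arrays with the comparisons above and gave the widest spread. At least 2-fold higher with PTX were 30 of 128 Zfp genes (23.4%), against 11.9% of all genes, and 1 (0.781%, Zfp811) was at least 2-fold lower, against 6.91%. The median was 0.50, against 0.04 over all genes. With median scaling it was 0.035, against -0.38 over all genes, with 16 higher and 6 lower of 134. Of all genes 6.63% were then higher and 16.9% lower. Zfp995 (3.45), Zfp433 (3.40), Zfp276 (2.63), Zfp219 (1.88) and Zfp512 (1.80) led. Next were Zfp950, at 573 with PTX and 153 with LPS (1.80), Zfp277, at 946 with PTX and 268 with LPS (1.76), and Zfp704, at 298 with PTX and 77 with LPS (1.76). A smaller gap, in the other direction, was seen in Zfp414 (267 with PTX and 511 with LPS, -0.90), which passed 2-fold with quantile normalization (-1.10) and median scaling (-1.29). On the LPS array 21 of the 30 were under 200.

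**Figure D4:**
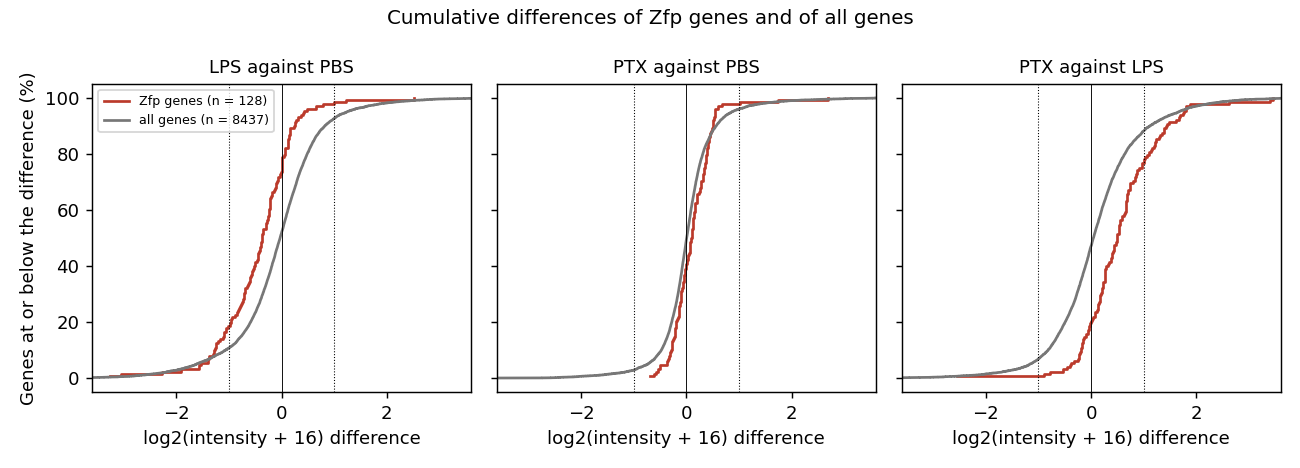
Cumulative share of genes (vertical axis, percent) at or below each log2(intensity + 16) difference (horizontal axis) for the 128 Zfp genes (red) and all 8437 genes (grey) in the 3 comparisons, with dotted lines at 2-fold. The Zfp curve lies left of all genes over most of LPS against PBS (median -0.37 against -0.03), near them in PTX against PBS, and right of them over most of PTX against LPS (0.50 against 0.04).

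The CCCH mRNA decay factors were all within 2-fold of PBS. Zfp36, whose protein is known to be induced early by LPS and to limit Tnf, read 1670.4 with LPS, 1331 with PTX and 1485 with PBS (0.17 and -0.16 against PBS). The 3 arrays were close for it at 24 h, on its only probe set. Zfp36l1 differed by -0.38 with LPS and 0.27 with PTX on its brighter probe set. On its other it read 721 with LPS, 2844 with PTX and 2217 with PBS, at least 2-fold lower with LPS (-1.60) and 0.36 with PTX. Zfp36l2 differed by -0.76 with LPS and -0.07 with PTX on the probe set that carried signal, and its other 2 were under 100 on each array. Both relatives were thus below PBS with LPS on every probe set above the minimum.

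Described mRNA targets of tristetraprolin, a list chosen with earlier results of these data known, were higher with LPS than with PTX in 12 of 12 at 200 or more. All 12 were at least 2-fold lower with PTX than with LPS, where 6.91% of all genes were. Of all genes 52.9% were higher with PTX than with LPS. Il10 passed the minimum of 200 only through the LPS array (205, against 53.3 with PTX and 49 with PBS). Of the 14 listed, Csf2 and Il23a stayed under 200. Il23a went the other way, at 11.4 with LPS, 53.8 with PTX and 63.6 with PBS. Csf2 read 86.2, 21.1 and 23.8 in the same order. Against PBS, 8 of the 12 were at least 2-fold higher with LPS and 0 lower (median 1.68), where 7.38% and 10.8% of all genes were. With PTX 0 were higher and 7 lower (median -1.18), where 4.03% and 2.89% of all genes were. Il1b (2.67 and 0.06) and Il10 (1.76 and 0.09) were not below PBS with PTX, and Myc was below PBS with both (-0.24 and -2.04). Il6 read 2974 with LPS, 181 with PTX and 568 with PBS, and Tnf read 631 with LPS, 113 with PTX and 296 with PBS. Both messages differed more between the arrays than Zfp36 did. Of 16 genes of the decay machinery and regulators of tristetraprolin, 0 were at least 2-fold from PBS in either comparison on the probe set that represents them (medians 0.14 with LPS and 0.01 with PTX). Other probe sets at 200 or more went past 2-fold with LPS in Ddx6 (-3.29 and -2.06), Pan3 (-2.62), Cnot6 (-1.58), Xrn1 (-1.21) and Elavl1 (1.05). One of Ddx6, a helicase of the decapping complex, read 153 with LPS, 1906 with PTX and 1642 with PBS, where its brightest read 2663, 2523 and 1974 in the same order. Mapkapk2, the kinase that inactivates tristetraprolin, read 1349 with LPS, 1118 with PTX and 1056 with PBS, and Xrn1, the 5′ to 3′ exonuclease, read 206 with LPS, 468 with PTX and 268 with PBS.

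Among 9 measured genes with a role described outside DNA binding, 1 was at least 2-fold lower with LPS (Zfp598) and none was apart with PTX. The lower share was 11.1%, near the 10.8% of all genes. Zfp106, an RNA-binding protein needed by motor neurons in mice, read 743 with LPS, 1478 with PTX and 1031 with PBS (-0.46 and 0.51). Zfp638 read 364 with LPS, 532 with PTX and 586 with PBS (-0.66 and -0.14). Its second measured probe set read 102 with LPS, 358 with PTX and 391 with PBS (-1.78 and -0.12), at least 2-fold lower with LPS where the brighter one was within 2-fold. Zfp622 lay above PBS with both, by 0.41 and 0.21, and on its second measured probe set by 0.26 and 0.23. Zfp593 (0.12) and Zfp830 (0.13) were close to PBS with LPS, and Zfp326 and Zfp346 were below PBS with LPS by less than 2-fold (-0.44 and -0.24).

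KRAB proteins with known targets were within 2-fold of PBS on the probe sets that represent them. Zfp445, which helps to maintain genomic imprints, read 1235 with LPS, 1978 with PTX and 1466 with PBS (-0.24 and 0.43). A dimmer probe set of it read 137 with LPS, 424 with PTX and 365 with PBS (-1.32 and 0.21). Zfp809, which silences retroviral DNA through its primer binding site, read 288 with LPS, 352 with PTX and 288 with PBS. Zfp568, a repressor of a placental Igf2 transcript, read 527 with LPS, 457 with PTX and 500.5 with PBS. Zfp57, the other imprint factor, and Zfp932 stayed under 200 on all arrays.

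Of the KRAB corepressor genes, 12 were at 200 or more. On the probe sets that represent them, 1 was at least 2-fold higher with LPS (Cbx1, 1.19) and 2 lower (Chd4 -2.90, Uhrf1 -1.03). With PTX 0 were higher and 1 lower (Uhrf1 -2.25). The shares with LPS were 8.33% and 16.7%, against 7.38% and 10.8% of all genes. With PTX they were 0% and 8.33%, against 4.03% and 2.89%. Trim28 read 969 with LPS, 1120.4 with PTX and 1395 with PBS (-0.52 and -0.31), and Setdb1 read 279 with LPS, 286 with PTX and 335 with PBS (-0.25 and -0.22). Uhrf1, which works with Dnmt1 at replicating DNA, read 192 with LPS, 72.9 with PTX and 408 with PBS. It was low on the same arrays as the dividing-cell markers, and that relation was not tested.

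Of 15 measured transcription regulators with a described role, 2 (Zfp91 and Zfp219) were at least 2-fold lower with LPS on the probe set that represents them. That is 13.3%, near the 10.8% of all genes. On those probe sets none was apart with PTX (medians -0.53 with LPS and -0.05 with PTX). Another probe set at 200 or more was at least 2-fold lower with LPS in Zfp318 (-2.16), Zfp292 (-1.69) and Zfp516 (-1.06), and in Zfp148, given below. Zfp281, a regulator of pluripotency in mouse embryonic stem cells, read 1273 with LPS, 1308 with PTX and 808 with PBS (0.65 and 0.68). Its second probe set read 284 with LPS, 1074 with PTX and 441 with PBS (-0.61 and 1.25). Both probe sets were above PBS with PTX, and they went opposite ways with LPS. Zfp217, a growth-promoting gene in human breast cancer, read 1294 with LPS, 1251 with PTX and 962 with PBS (0.42 and 0.37). Zfp384 read 558 with LPS, 845 with PTX and 974 with PBS (-0.79 and -0.20). Zfp703 read 315 with LPS, 699 with PTX and 529.5 with PBS (-0.72 and 0.39), and Zfp148, which binds GC-rich promoters, read 360.5 with LPS, 531 with PTX and 529 with PBS (-0.53 and 0.01). Of the 3 other probe sets of Zfp148 at 200 or more, 2 were at least 2-fold lower with LPS (-1.75 and -1.61) and the other differed by -0.25.

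Zfp410, a zinc finger activator of the chromatin remodeller gene Chd4, read 406 with LPS, 388 with PTX and 402 with PBS. Chd4 itself read 180 with LPS, 1192 with PTX and 1447 with PBS. Its other probe sets read 345 with LPS, 633 with PTX and 727 with PBS (-1.04 with LPS) and 518, 624 and 693 in the same order (-0.41). All probe sets of Chd4 were lower with LPS, by sizes that differed widely, while the level of Zfp410 was close on the 3 arrays.

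**Figure D5:**
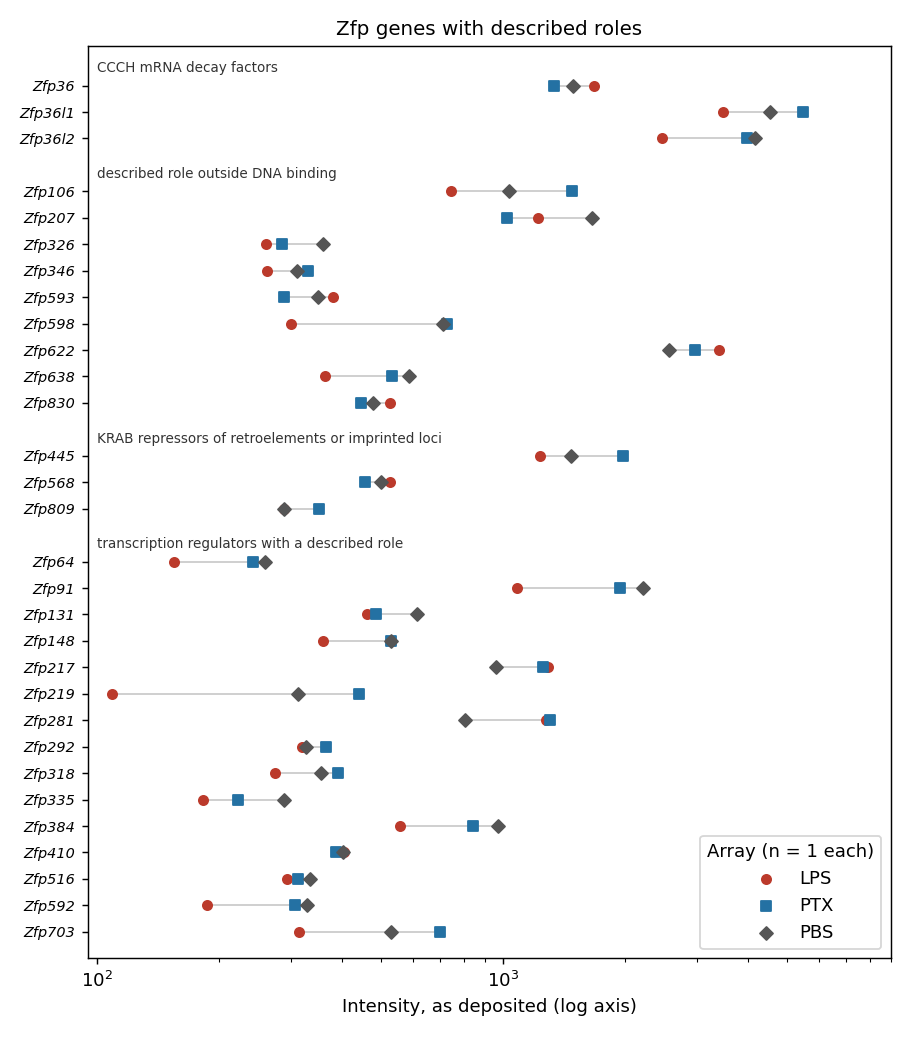
Intensity on a log axis of the 30 Zfp genes with a described role that reached 200, grouped by role, with LPS as circles, PTX as squares and PBS as diamonds (1 array each). The LPS point is the lowest for 12 of 15 transcription regulators, Zfp598 and Zfp219 show the widest gaps, and the LPS point of Zfp809 lies under its PBS point (288 each).

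Zfp genes lie in clusters, and 51 of the 128 stood next to another Zfp gene among protein-coding genes in the RefSeq order. These read a median of 218 with LPS, 291 with PTX and 262 with PBS, against 268, 392 and 362 for the 77 with no Zfp neighbour. A gene of another name between Zfp genes ends a run, so some of the 77 can still lie within a cluster. In LPS against PBS the medians were -0.25 for genes with a Zfp neighbour and -0.46 for those without. At least 2-fold lower were 6 of 51 and 18 of 77, where 10.8% of all genes were. The count of genes with a Zfp neighbour is near that share. In PTX against PBS the medians were 0.13 and 0.08. In the longest run of 20 adjacent Zfp genes, 7 were measured (Zfp953, Zfp429, Zfp874a, Zfp87, Zfp729b, Zfp729a and Zfp493), with LPS differences from -1.52 to 0.23, and 6 of the 7 lay above PBS with PTX. Neighbours thus differed among themselves with LPS, as did Zfp995 (-3.06) and Zfp994 (0.00), which belong to 1 run of 8. Near-identical sequence in such runs can let a probe set read several genes.

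Other zinc finger families were described in the same way. In LPS against PBS the median was -0.23 for 23 Zbtb genes (1 at least 2-fold higher, 2 lower), -0.22 for 7 Zscan and Zkscan genes (0 and 0), -0.30 for 10 Klf genes (0 and 3) and -0.16 for 12 Zc3h genes (2 and 2). Each of these medians lay between that of the Zfp genes (-0.37) and that of all genes (-0.03). The shares did not all do so. At least 2-fold lower were 8.7% of Zbtb, 0% of Zscan and Zkscan, 30% of Klf and 16.7% of Zc3h genes. Those at least 2-fold higher were 4.35%, 0%, 0% and 16.7%. Of the Zfp genes 18.8% were lower and 2.34% higher, and of all genes 10.8% and 7.38%. The lower share of the Klf genes was thus above that of the Zfp genes. In PTX against PBS the family medians were 0.07, 0.16, -0.23 and -0.05 in the same order. The 203 Zfp genes under the minimum had medians of -0.14 with LPS and 0.01 with PTX. Without an intensity minimum, over all 331 Zfp genes, 8 (2.42%) were at least 2-fold higher and 37 (11.2%) lower in LPS against PBS. Of all 18193 genes 4.80% were higher and 10.3% lower, so the lower share of the Zfp genes was then near that of all genes. In PTX against PBS 4 (1.21%) were higher and 1 (0.302%) lower, against 2.09% and 1.65%. In PTX against LPS 45 (13.6%) were higher and 6 (1.81%) lower, against 10.7% and 4.61%.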

How the data were processed

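Per the labels, RNA of 3 dendritic cell cultures was hybridized to 3 Affymetrix arrays, 1 per group. The values deposited by the authors are linear intensities, summarized per probe set. How they were summarized, background-corrected and scaled is not given in the sources used here. Gene names came from the platform annotation. Of 45101 probe sets, 64 were controls, 34945 had 1 symbol, 932 several and 9160 none listed, and all 128 Zfp genes matched the RefSeq table by Entrez ID.

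The deposited intensities were compared as log2(intensity + 16) with Python 3.11.15, pandas 2.3.3 and numpy 2.4.6. For each gene the probe set of highest mean log2 value was used, and genes with a probe set at 200 or more on some array were kept. Differences of at least 2-fold were counted for the Zfp genes and for all genes kept. With 1 array per group no test or interval was possible, and the number of arrays limits the precision. The counting was tested on simulated data. Alternatives were 3 other scalings, pseudocounts of 1 and 64, the mean over probe sets, leaving out probe sets that can match several transcripts, and other intensity minimums.

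Genes were named from the 8 highest and 8 lowest differences per comparison, the 10 highest levels and the genes at the minimum. Others came from genes with conflicting probe sets, members of role lists, and genes of small counts. Not every gene of these groups is named. The Zfp genes and all lists were chosen with earlier results of these data known.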

Additional observations from a re-analysis of the deposited data

How the results depend on the processing

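No paired analysis was possible because each group held 1 array, and no replicate could be left out. Over 10 alternatives, 74 of 100 summary values for the Zfp genes kept their direction and stayed within 1.5 times (counts) or 0.1 (medians on the log2 scale) of the reported value. With median scaling the median in LPS against PBS turned to 0.073. Of 134 genes 8 were at least 2-fold higher and 10 lower, against 15.7% and 6.37% of all genes. In PTX against LPS the median was 0.035, with 16 higher and 6 lower, against 6.63% and 16.9% of all genes. With quantile normalization the median was -0.12 in LPS against PBS. Of 134 genes 6 were higher and 15 lower, against 8.31% and 8.29% of all genes. In PTX against LPS the median was 0.17, with 18 higher and 4 lower, against 8.73% and 8.98% of all genes. With no intensity minimum there were 331 genes. The median was then -0.21 in LPS against PBS, with 8 higher and 37 lower (11.2%, near the 10.3% of all genes). In PTX against PBS 1 gene was lower, against 1.65% of all genes. In PTX against LPS the median was 0.24 with 6 lower, against 4.61% of all genes. With a minimum of 400 there were 59 genes. In LPS against PBS 13 were lower, against 9.1% of all genes. In PTX against LPS 16 were higher and 0 lower, against 11% and 7.77% of all genes. With a mean intensity of at least 200 there were 109 genes, with 1 higher in LPS against PBS and 1 in PTX against PBS. Of all genes 6.87% and 4.05% were. In PTX against LPS 0 were lower, against 6.32% of all genes. The changes with the minimum follow from the genes it kept, and the cause of the others was not tested. For single genes, 432 of 448 values kept their direction and their side of 2-fold, though sizes moved by more than 0.1 in many. Part of that count was fixed in advance. Other intensity minimums do not alter the value of a gene they keep, and a gene with a single probe set keeps its value in the mean over probe sets. Zfp493 turned to 0.16 in LPS against PBS with the mean over probe sets, which there holds only its other probe set.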

Other observations

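Among Zfp genes that stayed under 200, Zfp385a, whose protein binds RNA and partners with p53, read 166 with LPS, 73.1 with PTX and 68.1 with PBS. On the log2(intensity + 16) scale it differed by 1.11 in LPS against PBS and by 0.08 in PTX against PBS. Zfpl1, a Golgi protein whose symbol falls outside the naming rule, read 204 with LPS, 188 with PTX and 164 with PBS.

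Zfp644 had probe sets more than 2-fold apart from PBS in opposite directions with LPS. One read 259 with LPS, 84.4 with PTX and 80.2 with PBS, another 38.7 with LPS, 118 with PTX and 176 with PBS. The probe set that represents it read 265 with LPS, 431 with PTX and 399.7 with PBS.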
